A study of Rattus norvegicus with 16 samples.

Results

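The genes described are 7 subunits of the GABA-A receptor, namely Gabra2, Gabra3, Gabra4, Gabra5, Gabrb1, Gabrg1 and Gabrd, in the hippocampus of rats exposed to chronic mild stress (CMS, repeated small stressors of changing kind). They were chosen by gene symbol, and each is represented by a probe with 1 spot per array. They make up 7 of the 13903 genes that could be named on the array and 7 of the 18 GABA-A subunit genes that have a probe. All 7 passed the filter on dim probes, which required a signal well above background on at least 4 of 16 arrays.

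All animals were male Sprague-Dawley rats, and each of the 4 groups was measured on 4 single-colour Agilent arrays. The stressed groups had been through 8 weeks of CMS and were labelled depression-susceptible, anxiety-susceptible or insusceptible, and the control group had no CMS. The labels give no age, no criterion for sorting the stressed animals and no statement that each array held RNA of its own animal. Depression-susceptible and control arrays shared slides 1 and 2, with 2 arrays of each group per slide, whereas the anxiety-susceptible arrays filled slide 3 and the insusceptible arrays filled slide 4. Slides 3 and 4 were scanned on another day than slides 1 and 2. Group and slide therefore cannot be told apart in any comparison that involves the anxiety-susceptible or insusceptible arrays. Scan day cannot be told apart from group either where these are compared with depression-susceptible or control arrays. Slides 3 and 4 shared their scan day.

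GABA-A receptors are chloride channels that open when GABA, the main inhibitory transmitter of the adult brain, binds to them. Each channel is assembled from several subunits, usually alpha and beta subunits joined by a gamma or a delta subunit, and the combination sets where the channel sits and which drugs act on it. Receptors with gamma subunits serve fast inhibition at synapses, and receptors with delta or alpha5 subunits lie mostly outside synapses and carry a steady, tonic inhibition. In the hippocampus alpha2 and alpha5 are prominent in pyramidal neurons, and alpha4 together with delta is typical of dentate granule neurons.

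Levels are log2 processed signals relative to the 75th percentile of the same array, so a level of 0 equals that percentile. The percentile itself ranged from 4530.6 to 5292.6 signal units on the arrays of slides 1 and 2 and from 1630.4 to 1916.3 on those of slides 3 and 4. Within a slide, the arrays of a group were as alike as repeat spots on an array over 1487 probes with repeat spots, with a spread 0.737 to 0.926 times that expected from the spots. Those 1487 include 0 messenger RNA probes, so the spot error of the members themselves was not measured, and single members could differ more between arrays of 1 slide, as the levels of Gabra4 show. The arrays were averaged, which left 6 samples: 2 depression-susceptible, 1 anxiety-susceptible, 1 insusceptible and 2 control. Tests are limma's moderated test on these 6 samples with Benjamini-Hochberg adjustment over all 17713 probes tested, and the words rose and fell are kept for genes with an adjusted p under 0.05. The p-values measure the spread between slides, which may be technical, and the lone anxiety-susceptible and insusceptible samples are assumed to vary like the others. The share of higher calls depended on the scaling. It was 73.7% for depression-susceptible, 53.0% for anxiety-susceptible and 59.4% for insusceptible hippocampus against control, and with median scaling it was 52.5%, 18.2% and 19.2%. Quantile normalization gave 41.2% in anxiety-susceptible and 45.2% in insusceptible hippocampus, normexp background correction gave 72.3% and 74.4%, and the deposited value table gave 47.9% in insusceptible hippocampus. Median scaling moved the median difference from control over all probes to -0.15, -0.33 and -0.32 in depression-susceptible, anxiety-susceptible and insusceptible hippocampus, and normexp to -0.03, 0.20 and 0.23.

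The members Gabrb1, Gabra4, Gabra2 and Gabrg1, lie next to each other on rat chromosome 14 with a non-subunit gene, Cox7b2, between Gabra4 and Gabra2. These neighbours did not move in the same direction. In anxiety-susceptible hippocampus Gabra4, Gabra2 and Gabrg1 fell against control while Gabrb1 rose. In insusceptible hippocampus Gabra4 and Gabrg1 fell and Gabrb1 rose. In depression-susceptible hippocampus none of the 7 members passed the threshold. The sequences upstream of Gabra4, Gabrg1 and Gabrb1 are shown because these neighbouring genes gave the largest falls and the opposite change. Each covers the 250 bases before the annotated start, written 5′ to 3′ in the direction of the gene, from RefSeq on build GRCr8. Gabra4 is at chr14:36944497-36944746 on the plus strand, Gabrg1 at chr14:37750042-37750291 on the plus strand and Gabrb1 at chr14:36902894-36903143 on the minus strand. Capitals mark matches to GCGNGGGCG, letters used here for the binding motif of Egr factors, which are activity-induced transcription factors. Binding was not tested.
Gabra4: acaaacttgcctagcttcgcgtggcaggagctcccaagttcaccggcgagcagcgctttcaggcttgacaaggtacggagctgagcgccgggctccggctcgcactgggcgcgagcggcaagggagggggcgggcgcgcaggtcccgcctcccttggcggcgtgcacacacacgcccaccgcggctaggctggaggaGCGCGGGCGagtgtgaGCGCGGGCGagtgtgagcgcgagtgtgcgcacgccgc
Gabrg1: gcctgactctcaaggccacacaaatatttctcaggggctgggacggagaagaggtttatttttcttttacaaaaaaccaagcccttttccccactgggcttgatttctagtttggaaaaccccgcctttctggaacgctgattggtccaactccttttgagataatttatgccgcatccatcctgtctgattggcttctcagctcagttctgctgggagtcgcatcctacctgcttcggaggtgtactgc
Gabrb1: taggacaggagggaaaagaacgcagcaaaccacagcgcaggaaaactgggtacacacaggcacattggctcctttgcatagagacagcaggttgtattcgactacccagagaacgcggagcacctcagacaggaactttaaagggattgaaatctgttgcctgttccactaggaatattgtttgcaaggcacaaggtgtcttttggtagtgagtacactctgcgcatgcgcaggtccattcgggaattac

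The Gabra4 sequence held 2 matches to these letters, which start 53 and 37 bases before the annotated start, both on the strand shown. They have identical letters and lie in a repeated stretch. Both strands were searched, and such a match occurs in 4.29% of 33469 rat promoters of the same length. That share was not taken over promoters with as much G and C as Gabra4. The Gabrg1 and Gabrb1 sequences held none of these letters. Neither TGACGTCA, the cAMP response element, nor the glucocorticoid response element (AGAACA, any 3 bases, TGTTCT) was found in the 6 members with an entry, where 1.59% and 0.012% of promoters hold them. The upstream sequence of Gabra4 is rich in G and C, at 71.6%, as are those of Gabra5 at 76.4% and Gabrd at 74.0%. Gabrg1 had 48.4% and Gabrb1 49.2%, close to the 51.2% median over all promoters, and Gabra3 had 40.4%. Gabra4 and Gabrg1 differ in the base composition of this window, and of the pair Gabra4 alone holds the Egr letters. A link between these sequences and the differences in level was not tested. Gabra2 was not among the 6 members with an entry.

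Gabra4 encodes alpha4, the alpha subunit that pairs with delta outside synapses and makes receptors insensitive to classical benzodiazepines. Its levels were 0.23, 0.51, 0.26 and 0.29 on the depression-susceptible arrays. They were -0.66, -0.70, -0.66 and -0.64 on the anxiety-susceptible arrays and -0.23, -0.26, -0.26 and -0.26 on the insusceptible arrays, against 0.37, 0.64, 0.64 and 0.65 on the control arrays. Every anxiety-susceptible array lay below every insusceptible array, and both groups lay below all control arrays, while depression-susceptible and control arrays overlapped. Here and for the members below, the share of all genes whose anxiety-susceptible or insusceptible arrays separate likewise was not counted. With arrays as separate samples, 71.4% of probes were called in anxiety-susceptible and 72.7% in insusceptible hippocampus against control. Against control, Gabra4 fell by 1.24 on the log2 scale in anxiety-susceptible hippocampus (SE 0.11, limma adjusted p = 0.0108), which is 2.36-fold lower. In insusceptible hippocampus it fell by 0.83 (SE 0.11, limma adjusted p = 0.0189), or 1.78-fold. The second of these calls was lost when the control sample of slide 1 or of slide 2 was left out. The anxiety-susceptible call stood under all 29 alternatives tried. Like the counts of 29 below, these include leaving out single arrays of the other group with 1 sample, which cannot change a comparison with control. They also include fits that take the arrays as separate samples.

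Gabrg1 encodes gamma1, a gamma subunit that occurs in neurons and in glial cells and gives receptors with a weak response to benzodiazepines. The 4 depression-susceptible arrays had levels of -0.23, -0.16, -0.34 and -0.25. The anxiety-susceptible arrays had -1.17, -1.25, -1.23 and -1.16, the insusceptible arrays had -0.86, -0.91, -0.90 and -0.88, and the control arrays had 0.28, 0.07, 0.02 and 0.01. The 4 groups did not overlap, with the share of all genes again not counted, and their order was the same as for Gabra4. Gabrg1 fell by 1.30 in anxiety-susceptible hippocampus against control (SE 0.12, limma adjusted p = 0.0111), a 2.46-fold difference. It fell by 0.99 in insusceptible hippocampus (SE 0.12, limma adjusted p = 0.0162), or 1.98-fold. Without the control sample of slide 1 the insusceptible call was lost, at an adjusted p of 0.0557.

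Gabra2 encodes alpha2, the synaptic subunit through which benzodiazepines relieve anxiety-like behaviour in mice. Its depression-susceptible arrays gave levels of 1.51, 1.50, 1.48 and 1.61. The anxiety-susceptible arrays gave 1.20, 1.19, 1.20 and 1.14 and the insusceptible arrays 1.33, 1.32, 1.40 and 1.47, against 1.84, 1.72, 1.63 and 1.69 in control. All stressed arrays lay below all control arrays, with a narrow gap between the depression-susceptible and control arrays. Gabra2 fell by 0.54 in anxiety-susceptible hippocampus (SE 0.10, limma adjusted p = 0.0331), or 1.45-fold. The difference in insusceptible hippocampus was -0.34 (SE 0.10, limma adjusted p = 0.0756), with a 95% interval from -0.62 to -0.06. It depended on the processing, at -0.70 with median scaling (limma adjusted p = 0.0218) and -0.37 with normexp (limma adjusted p = 0.0257), which both made a call, and at -0.14 with quantile normalization (limma adjusted p = 0.243). The anxiety-susceptible call was made in 24 of 29 alternatives. It was lost without the filter on dim probes and when any 1 of the 4 control and depression-susceptible samples was left out, with a highest adjusted p of 0.113.

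Gabrb1 encodes beta1, a beta subunit, the kind that forms the GABA binding site together with an alpha subunit. Its levels were 1.16, 1.003, 1.05 and 1.16 on the depression-susceptible arrays. The anxiety-susceptible arrays had 1.64, 1.60, 1.60 and 1.65, the insusceptible arrays 1.74, 1.76, 1.80 and 1.70, and the control arrays 1.26, 1.22, 1.27 and 1.25. The anxiety-susceptible and insusceptible arrays were above all control arrays, and the depression-susceptible arrays were below them. Gabrb1 rose by 0.37 in anxiety-susceptible hippocampus (SE 0.09, limma adjusted p = 0.0484), or 1.29-fold, and by 0.50 in insusceptible hippocampus (SE 0.09, limma adjusted p = 0.0282), or 1.41-fold. Both calls depended on the scaling. With each array scaled to its median the differences were 0.04 (limma adjusted p = 0.747) and 0.14 (limma adjusted p = 0.319), the highest p among the alternatives. The anxiety-susceptible call was made in 13 of 29 alternatives and was lost when any control or depression-susceptible array, or anxiety-susceptible replicate 1 or 4, was left out. The insusceptible call was made in 24 of 29 and was lost without any 1 of the control and depression-susceptible samples.

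**Figure D1:**
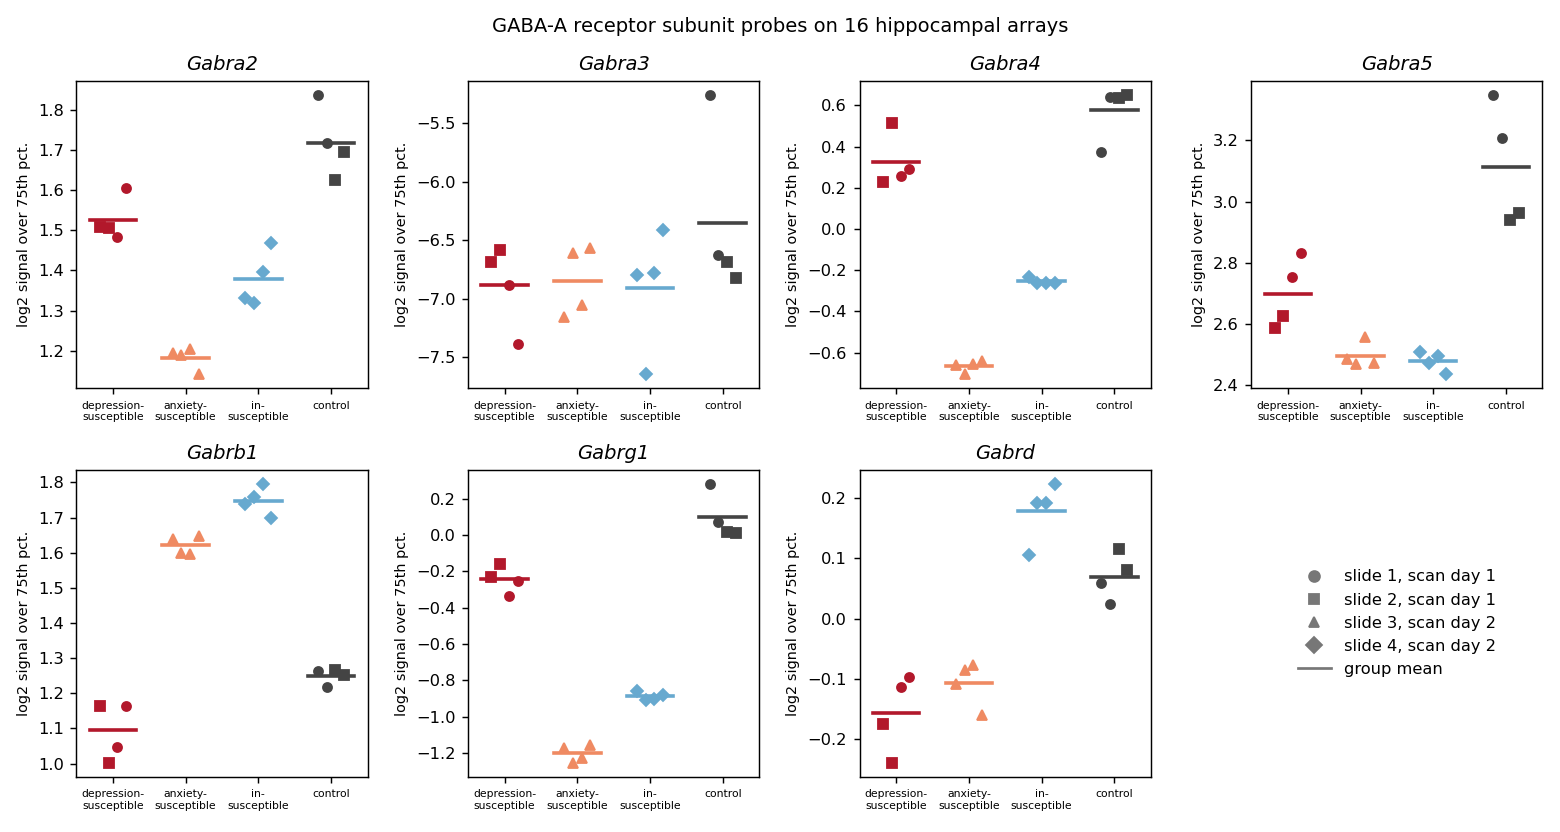
Level of each member (log2 processed signal relative to the array's 75th percentile) on the 16 arrays, with groups from left to right depression-susceptible, anxiety-susceptible, insusceptible and control, and marker shapes for the 4 slides. Lines are group means over slides. Gabra4 and Gabrg1 are lowest on the anxiety-susceptible arrays, and Gabrb1 is highest on the insusceptible arrays.

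Gabra5 encodes alpha5, the subunit of tonic inhibition in pyramidal dendrites. Its levels were 2.59, 2.63, 2.75 and 2.83 on depression-susceptible arrays, 2.49, 2.47, 2.56 and 2.47 on anxiety-susceptible arrays and 2.51, 2.47, 2.49 and 2.44 on insusceptible arrays, against 3.35, 3.21, 2.94 and 2.96 on control arrays. Every stressed array was below every control array, and no comparison passed the threshold in the test on 6 samples. The differences from control were -0.41 in depression-susceptible (SE 0.15, limma adjusted p = 0.175), -0.62 in anxiety-susceptible (SE 0.19, limma adjusted p = 0.0789) and -0.64 in insusceptible hippocampus (SE 0.19, limma adjusted p = 0.0727). With quantile normalization the last 2 differences were -0.22 each. With median scaling they were -0.94 (limma adjusted p = 0.0307) and -0.996 (limma adjusted p = 0.0283), both past the threshold, and with the slide as a block the depression-susceptible difference passed too (limma adjusted p = 0.0270).

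Gabrd encodes delta, the partner of alpha4 outside synapses and the subunit that makes receptors most sensitive to neurosteroids. Its arrays had levels of -0.18, -0.24, -0.11 and -0.10 in depression-susceptible, -0.11, -0.08, -0.08 and -0.16 in anxiety-susceptible and 0.11, 0.19, 0.19 and 0.22 in insusceptible hippocampus, against 0.06, 0.02, 0.11 and 0.08 in control. Depression-susceptible and anxiety-susceptible arrays were below control, and insusceptible arrays overlapped with it at their lowest. No difference passed in the test on 6 samples: -0.23 in depression-susceptible (SE 0.08, limma adjusted p = 0.172), -0.18 in anxiety-susceptible (SE 0.10, limma adjusted p = 0.243) and 0.11 in insusceptible hippocampus (SE 0.10, limma adjusted p = 0.438), the last of which was -0.25 with median scaling. Median scaling also moved the anxiety-susceptible difference to -0.51 (limma adjusted p = 0.0303), past the threshold. The difference between Gabrd and its partner Gabra4 was not tested.

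Gabra3 encodes alpha3, which is found in monoamine neurons, among others, and is scarce in the adult hippocampus. Its probe was dim. It was well above background on 4 depression-susceptible, 2 anxiety-susceptible, 1 insusceptible and 4 control arrays, whereas the other 6 members were so on all 16 arrays. Its levels ran from -7.39 to -6.58 in depression-susceptible, from -7.16 to -6.56 in anxiety-susceptible and from -7.64 to -6.41 in insusceptible hippocampus, against -6.83 to -5.26 in control. All groups overlapped. The differences from control lay between -0.56 and -0.50, with adjusted p from 0.361 to 0.416 in limma, and the anxiety-susceptible and insusceptible differences were 0.60 and 0.62 under normexp background correction.

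Read together, 4 of the 7 members were called in anxiety-susceptible hippocampus against control, 1 higher and 3 lower, where 28.2% of all probes tested were called, 14.9% higher and 13.2% lower. In insusceptible hippocampus 3 were called, 1 higher and 2 lower, against a background of 29.4%, 17.5% higher and 11.9% lower. Those 2 comparisons share the control samples. The median difference over the 7 members was -0.54 in anxiety-susceptible and -0.56 in insusceptible hippocampus, beside -0.07 and -0.03 over the 11213 genes tested. With quantile normalization the members' medians were -0.36 and -0.22. The insusceptible median of -0.56 is the value of Gabra3 itself, the dim probe whose difference was 0.62 under normexp. In 6 and 5 of the 7 members the difference was below 0, as it was in 56.1% and 52.6% of all genes. The counts rested partly on the controls. Without the control sample of slide 1, fewer members were called in both comparisons, and fewer of all probes were called too.

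The comparison of depression-susceptible with control hippocampus is the only one with both groups on the same slides. None of the 7 members passed in limma's test on the 6 samples, where 10.1% of probes were called, and the unadjusted p was under 0.05 in 1 of them, Gabrg1, and in 29.5% of all probes tested. Its difference was -0.34 (SE 0.10, limma adjusted p = 0.118), with a 95% interval from -0.62 to -0.07. All 7 differences were below 0, between -0.53 and -0.16, as were those of 54.7% of all genes. In 6 of 7 members, Gabra3 being the exception, the depression-susceptible sample was lower than the control sample on both slides, as in 46.6% of all genes. The differences on slide 1 and slide 2 were -0.47 and -0.21 for Gabrg1, -0.49 and -0.34 for Gabra5, and -0.23 and -0.27 for Gabra4. In 5 of 7 members all 4 depression-susceptible arrays were below all 4 control arrays, which was so for 22.9% of all genes. With the slide as a block, Gabra4 (limma adjusted p = 0.0375) and Gabra5 (limma adjusted p = 0.0270) passed, both lower, where 36.9% of probes did and 18.0% were lower. The 16 arrays taken as separate samples called 6 members lower, all except Gabra3, where 49.2% of probes were called and 25.8% were lower. The same treatment of the arrays called 71.4% of probes in anxiety-susceptible and 72.7% in insusceptible hippocampus against control. It called 61.6% between depression-susceptible and insusceptible, 36.0% between anxiety-susceptible and insusceptible, and 61.7% between depression-susceptible and anxiety-susceptible hippocampus.

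No member passed in any comparison between stressed groups. In limma's test 0.0677% of probes were called between depression-susceptible and insusceptible, 0.0903% between anxiety-susceptible and insusceptible and 0.299% between depression-susceptible and anxiety-susceptible hippocampus. Of the probes called, 47.2% were higher in the last comparison, and 62.2% with median scaling, 69.9% with quantile normalization, 64.4% in the deposited table and 16.4% with normexp. The higher share was 91.7% in depression-susceptible against insusceptible hippocampus, and 75.9%, 76.4% and 13.4% with quantile normalization, the deposited table and normexp, and 87.5% in anxiety-susceptible against insusceptible hippocampus, and 67.1% and 77.1% with quantile normalization and the deposited table. Unadjusted p-values were under 0.05 for 4, 1 and 4 of the 7 members in these comparisons, and for 30.5%, 11.1% and 31.0% of all probes tested. Gabra4 was higher in depression-susceptible than in anxiety-susceptible hippocampus by 0.99 (SE 0.11, limma adjusted p = 0.0587) and Gabrg1 by 0.96 (SE 0.12, limma adjusted p = 0.0592). Gabrb1 differed by -0.53 (SE 0.09, limma adjusted p = 0.0654) in the same comparison and by -0.65 between depression-susceptible and insusceptible hippocampus (SE 0.09, limma adjusted p = 0.0764). Gabra4 differed by -0.41 between anxiety-susceptible and insusceptible hippocampus, with a 95% interval from -0.77 to -0.05 (limma adjusted p = 0.404). Quantile normalization and the deposited value table called Gabra4, Gabrg1 and Gabrb1 between depression-susceptible and anxiety-susceptible hippocampus.

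The order of the group means, from high to low, was control, depression-susceptible, insusceptible and anxiety-susceptible for Gabra2, Gabra4 and Gabrg1. For Gabra5 it was control, depression-susceptible, anxiety-susceptible and insusceptible. For Gabrb1 it was insusceptible, anxiety-susceptible, control and depression-susceptible, and for Gabrd insusceptible, control, anxiety-susceptible and depression-susceptible. Of the 21 neighbouring steps in these orders, counting Gabra3, the step between anxiety-susceptible and control hippocampus for Gabrb1 was the only one that passed the threshold.

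Across the 6 samples the levels of Gabra4 and Gabrg1 had a Pearson correlation of 0.979 and those of Gabra2 and Gabrg1 one of 0.971. Gabrb1 ran opposite, at -0.799 with Gabra4 and -0.798 with Gabrg1, and Gabrd was near 0 with both, at 0.05 and 0.03. These are descriptions over 6 points that share slides and scan days. The genes most like each member among 11206 others, again by Pearson correlation over 6 samples, were Lats1, Fcgr3a and Cdh8 for Gabra4 (0.998 to 0.999) and Sf3b5, Ramac and Prrc2b for Gabrg1 (0.997 to 0.999). They were Ppp1r3d, Csgalnact2 and Slc30a1 for Gabra2 (0.998 to 0.999), Trak2, Nars1 and Ift74 for Gabra5 (0.998 to 0.999), and Fgf9, Ndufs7 and Alox12b for Gabrb1 (0.997 to 0.999). For Gabrd they were Or52p2, Afp and Tppp (0.975 to 0.980), and for Gabra3 they were Anxa11, Klf10 and Smpd1 (0.947 to 0.956). Values over 0.95 were common for some members, with 394 genes for Gabra4, 592 for Gabrg1, 440 for Gabra2, 585 for Gabra5 and 155 for Gabrb1. Only 10 genes exceeded 0.95 with Gabrd and 1 with Gabra3.

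Of 4 measured genes that flank the chromosome 14 run, 1 was called in a comparison with control. The call was in insusceptible hippocampus, where 29.4% of all probes tested were called. Gnpda2, Guf1 and Yipf7, beyond Gabrg1, had anxiety-susceptible differences from control of 0.03, -0.01 and 0.58, with limma adjusted p of 0.796, 0.967 and 0.0814. Their insusceptible differences were 0.15, 0.49 and 0.67 (limma adjusted p = 0.246, 0.196 and 0.0610). Commd8, on the other side next to Gabrb1, had -0.28 in anxiety-susceptible hippocampus (limma adjusted p = 0.0906) and fell by 0.51 in insusceptible hippocampus (limma adjusted p = 0.0300). Cox7b2, inside the run, was not analysed here.

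**Figure D2:**
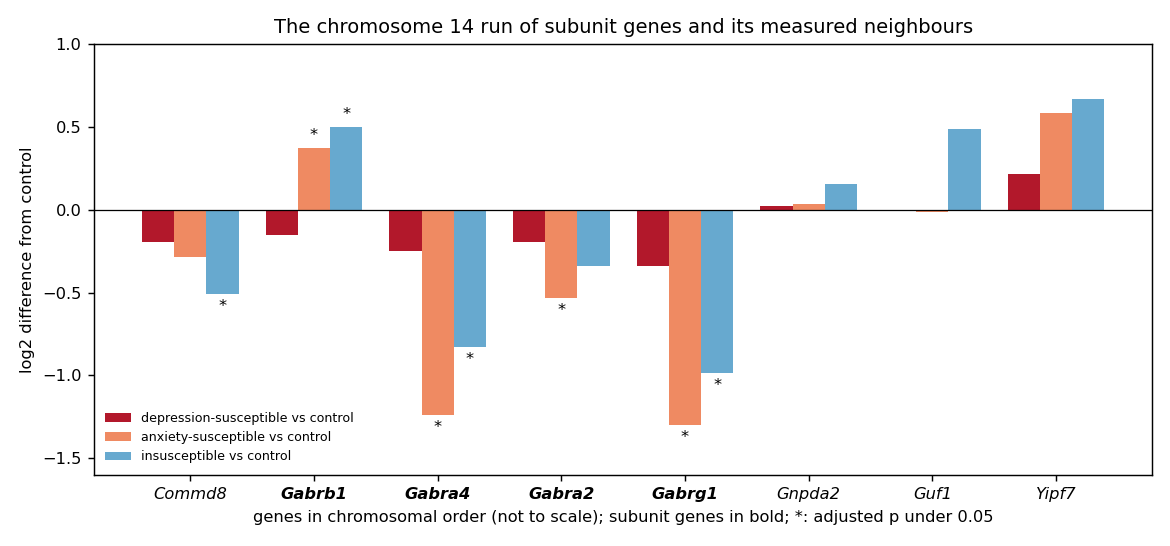
Log2 differences from control for the genes of the chromosome 14 run and their measured neighbours, in chromosomal order and not to scale, for depression-susceptible, anxiety-susceptible and insusceptible hippocampus. Asterisks mark an adjusted p under 0.05. Gabrb1 is above 0 in anxiety-susceptible and insusceptible hippocampus, at 0.37 and 0.50, and the next genes, Gabra4, Gabra2 and Gabrg1, are below 0.

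Among the other GABA-A subunits 11 had a probe and 9 were tested. In depression-susceptible hippocampus 1 was called higher, the dim Gabra6, and 0 lower, in anxiety-susceptible 0 higher and 3 lower, and in insusceptible 0 higher and 2 lower. Of all probes tested, 10.1%, 28.2% and 29.4% were called in that order of groups. The lower calls were 13.2% in anxiety-susceptible and 11.9% in insusceptible hippocampus. Gabrg3 (gamma3), a neighbour of Gabra5 on chromosome 1, had differences of 0.03, -0.03 and 0.21 in depression-susceptible, anxiety-susceptible and insusceptible hippocampus, with limma adjusted p of 0.862, 0.852 and 0.210. Gabrb2, the beta2 subunit, had 0.07, -0.20 and 0.03 in the same order, with limma adjusted p between 0.384 and 0.881.

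Gabrq, the theta subunit, showed the largest fitted falls of the subunits described here. Its levels were 1.94 and 2.76 on 2 depression-susceptible arrays, 0.23, 0.18, 0.32 and 0.59 on anxiety-susceptible arrays and -0.75, -0.95, -0.92 and -1.08 on insusceptible arrays, against 3.25, 2.89 and 2.85 on 3 control arrays. The spot was marked as an outlier on the remaining 2 depression-susceptible arrays and 1 control array, so 3 of its 6 samples rest on 1 array each. Gabrq fell by 2.73 in anxiety-susceptible (limma adjusted p = 0.0224) and by 3.98 in insusceptible hippocampus (limma adjusted p = 0.0128). In the deposited value table the adjusted p was 0.113 and 0.0508. In depression-susceptible hippocampus the difference was -0.71 (limma adjusted p = 0.251).

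Gabra6 encodes alpha6, known from cerebellar granule neurons, and its probe was dim. It was well above background on 4 depression-susceptible, 0 anxiety-susceptible, 0 insusceptible and 1 control arrays. It passed the filter only through the depression-susceptible arrays, so its call there carries no weight of its own. The difference from control was 1.19 (limma adjusted p = 0.0194), and under normexp it was 0.33 (limma adjusted p = 0.0670). In the other stressed groups, where no array was well above background, its differences were -0.58 and -0.28, and normexp turned them to 0.98 and 0.95. Gabre (epsilon), Gabrr2 (rho2) and Gabrr3 (rho3) gave no call, with differences between -0.54 and 0.07, and Gabrp (pi) and Gabrr1 (rho1) were well above background on 0 arrays.

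**Figure D3:**
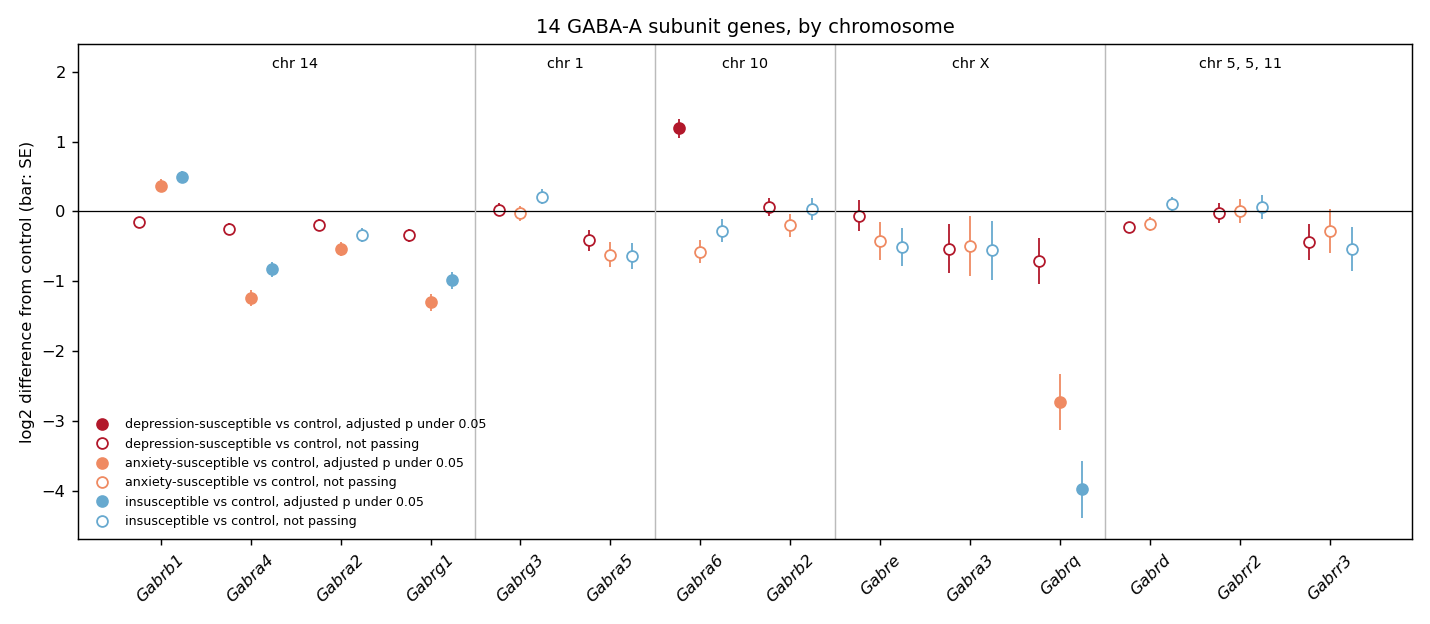
Log2 differences from control, with SE, for 14 of the subunit genes tested, grouped by chromosome, in depression-susceptible, anxiety-susceptible and insusceptible hippocampus. Filled points have an adjusted p under 0.05. Filled points lie below 0 for Gabra4, Gabrg1 and Gabrq in both anxiety-susceptible and insusceptible hippocampus, and above 0 for Gabrb1.

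The genes that make, move and anchor these receptors were taken from lists chosen with earlier results of these data known. The counts for these and the following lists stand beside 10.1%, 28.2% and 29.4% of all probes tested. Those are the shares called against control in depression-susceptible, anxiety-susceptible and insusceptible hippocampus. Gphn, gephyrin, which forms the scaffold under inhibitory synapses, had differences of -0.14, -0.09 and -0.11 in depression-susceptible, anxiety-susceptible and insusceptible hippocampus, with limma adjusted p of 0.288, 0.490 and 0.398. Of 24 tested genes for receptor anchoring and traffic, 0 were called higher in any of the 3 comparisons with control, and 0, 2 and 5 were called lower in that order of groups. The list medians were -0.08, -0.26 and -0.19, beside -0.03, -0.07 and -0.03 over all genes. The direction turned with quantile normalization, where the medians were 0.07, 0.01 and 0.04, with 0, 1 and 2 genes called higher and 0, 2 and 4 lower. Dmd, dystrophin, a part of inhibitory synapses on hippocampal pyramidal neurons, fell by 1.20 in anxiety-susceptible (limma adjusted p = 0.0105) and by 0.92 in insusceptible hippocampus (limma adjusted p = 0.0149). The other fall in anxiety-susceptible hippocampus was Ubqln1, which slows the breakdown of subunits, at -0.42 (limma adjusted p = 0.0474). Also lower in insusceptible hippocampus, and named after their values were seen, were Clptm1 at -0.84, Hap1 at -0.56 and Nlgn2 at -0.52, with limma adjusted p from 0.0341 to 0.0493.

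Among 9 genes of GABA synthesis and uptake, 2 were higher and 1 lower in depression-susceptible, 1 and 1 in anxiety-susceptible, and 2 and 2 in insusceptible hippocampus. Gad2, which makes GABA for release at nerve endings, fell in all 3 comparisons, by 0.69 in depression-susceptible (limma adjusted p = 0.0162), 1.36 in anxiety-susceptible (limma adjusted p = 0.00679) and 1.15 in insusceptible hippocampus (limma adjusted p = 0.00846). Gad1, the other GABA-making enzyme, had -0.06, 0.35 and 0.27, with limma adjusted p of 0.744, 0.103 and 0.163. Slc6a13, a GABA transporter found in the meninges and liver, rose by 1.21, 0.75 and 2.21 in the same order (limma adjusted p = 0.0156, 0.0366 and 0.00741). Slc6a12, a betaine and GABA transporter, was well above background on 0 of 4 control arrays, on 4 of 4 depression-susceptible and on 2 of 4 insusceptible arrays. It passed the filter only through stressed arrays, so its calls, counted above, carry no weight of their own. For a bound, each control array was set no lower than its dimmest signal well above background. Against it, depression-susceptible hippocampus was at least 1.98-fold higher, a difference that was not tested. The insusceptible mean over all 4 arrays was 3.4-fold above the bound. That value is no lower limit, as only 2 of these 4 arrays were well above background. Slc38a1, which brings glutamine into neurons, fell by 0.43 in insusceptible hippocampus (limma adjusted p = 0.0479).

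Of 5 tested genes for GABA-B and glycine receptors 1 was called, Glrb, the glycine receptor beta subunit, which also binds gephyrin. It fell by 0.998 in anxiety-susceptible (limma adjusted p = 0.0115) and by 0.42 in insusceptible hippocampus (limma adjusted p = 0.0439). Of 6 chloride transporter genes Clcn2, a chloride channel, rose in all 3 comparisons, by 0.52, 0.64 and 0.49 in depression-susceptible, anxiety-susceptible and insusceptible hippocampus (limma adjusted p = 0.0497, 0.0296 and 0.0458). Clcn3, a chloride exchanger of vesicles, fell by 0.52 and 0.42 in anxiety-susceptible and insusceptible hippocampus (limma adjusted p = 0.0291 and 0.0410), and Slc12a2, the chloride importer NKCC1, fell by 0.48 in anxiety-susceptible hippocampus (limma adjusted p = 0.0336). Of 8 neurosteroid and endozepine genes, Tspo, a cholesterol-binding mitochondrial protein, fell by 0.66 in depression-susceptible hippocampus (limma adjusted p = 0.0231). Srd5a2, a steroid 5-alpha reductase, rose by 0.76 in anxiety-susceptible and by 1.71 in insusceptible hippocampus (limma adjusted p = 0.0206 and 0.00654).

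Some of these calls depended on the scaling or background correction. Those for Gad2 in all 3 stressed groups, for Dmd in anxiety-susceptible and insusceptible hippocampus, and for Clcn3 and Glrb in anxiety-susceptible hippocampus stood under quantile normalization, median scaling, normexp and the deposited value table. So did those for Clptm1, Slc6a12 and Srd5a2 in insusceptible, Slc6a13 in depression-susceptible and insusceptible, and Tspo in depression-susceptible hippocampus. That of Slc6a12 carries no weight of its own, since the probe passed the filter only through stressed arrays. The other calls named here outside the members and the marker lists were lost under at least 1 of these 4 settings, with the direction kept. For Clcn2 in insusceptible hippocampus the difference was 0.14 with median scaling (limma adjusted p = 0.361), and for Hap1 it was -0.14 with quantile normalization (limma adjusted p = 0.265).

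**Figure D4:**
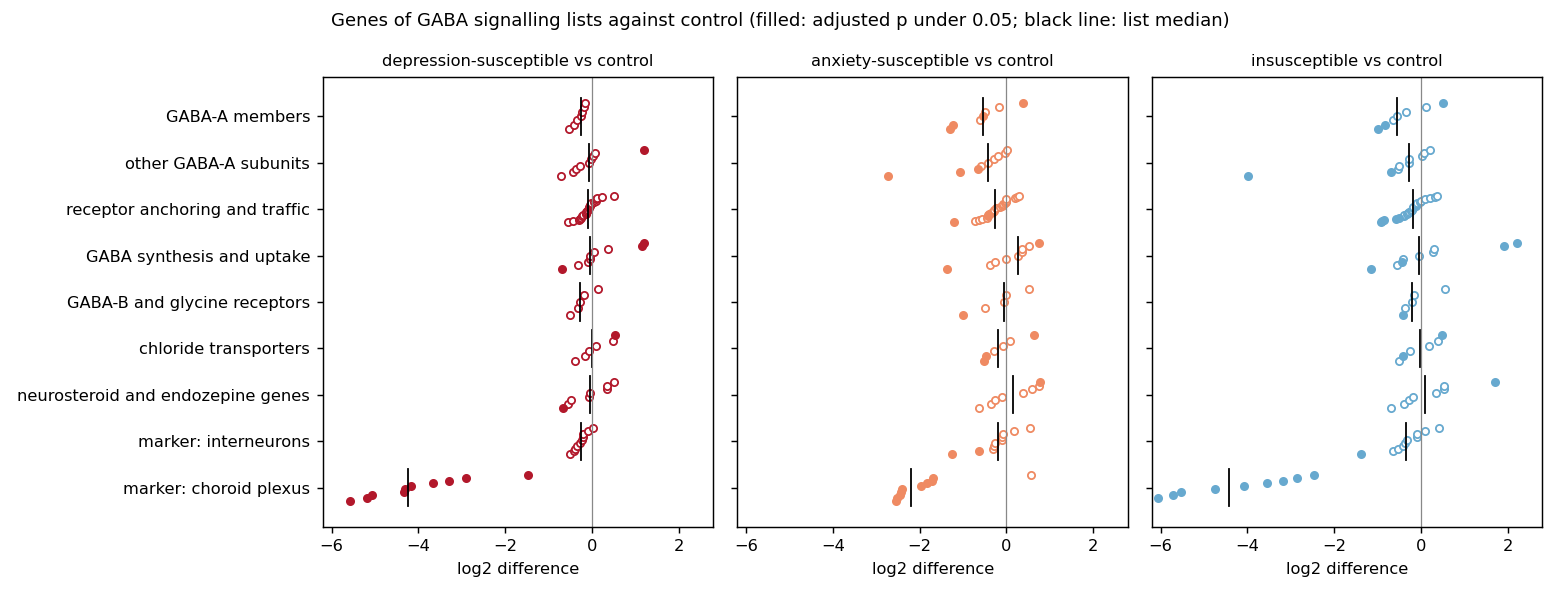
Log2 differences from control of the genes of 9 lists in depression-susceptible, anxiety-susceptible and insusceptible hippocampus, with the list median as a black line and filled points for an adjusted p under 0.05. The members' medians are -0.25, -0.54 and -0.56, and those of the choroid plexus list are -4.24, -2.19 and -4.41.

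Markers of cells beside hippocampal neurons moved with the groups. In bulk tissue, fewer cells of a type and less RNA per cell cannot be told apart. Of 10 choroid plexus genes all 10 fell in depression-susceptible hippocampus, 9 in anxiety-susceptible and 10 in insusceptible hippocampus. Their summed level, in multiples of the 75th percentile, was 18.5 to 22.0 in depression-susceptible hippocampus, 84.7 in anxiety-susceptible and 7.92 in insusceptible hippocampus, against 69.6 to 79.5 in control. Ttr, the brightest of them, had an anxiety-susceptible difference of 0.57 (limma adjusted p = 0.0869), and Kl was well above background on 0, 1 and 0 of 4 arrays in the stressed groups, against 4 in control. Kl passed the filter only through the control arrays, so its falls, counted above, carry no weight of their own. Of 6 red blood cell genes 4 rose and 1 fell in depression-susceptible, 0 rose and 2 fell in anxiety-susceptible and 3 rose and 1 fell in insusceptible hippocampus. Their summed level was 15.7 to 16.7 in depression-susceptible hippocampus, 0.636 in anxiety-susceptible and 1.65 in insusceptible hippocampus, against 0.876 in both control samples. The part of these shifts in the results on the subunits was not tested.

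Fewer neuronal markers were called than choroid plexus genes. Their counts stand beside the 10.1%, 28.2% and 29.4% of all probes called against control, in the order of groups that follows. All 10 interneuron genes were well above background on all 16 arrays, with 0 called in depression-susceptible, 2 lower in anxiety-susceptible and 1 lower in insusceptible hippocampus. Their summed level, in which the brightest genes weigh most, was 60.9 to 70.3 for depression-susceptible, 66.6 for anxiety-susceptible and 59.3 for insusceptible hippocampus, against 80.4 to 89.5 in control. The median differences from control were -0.25, -0.19 and -0.35 in that order. Quantile normalization moved the first to -0.07 and turned the second to 0.08, with 3 of 10 genes below 0 in anxiety-susceptible hippocampus. None of the 6 dentate granule genes was called in any comparison with control, with medians of -0.45 for depression-susceptible, -0.52 for anxiety-susceptible and 0.05 for insusceptible hippocampus. Of 8 genes of CA1 and CA3 pyramidal neurons 1 was higher and 1 lower in depression-susceptible, 1 and 1 in anxiety-susceptible, and 0 and 1 in insusceptible hippocampus. Of 8 astrocyte genes 1 was higher in insusceptible hippocampus, and 0 were called in the other stressed groups. Marker lists of neighbouring regions gave 0 higher and 0 lower of 4 cortex genes in depression-susceptible, 0 and 2 in anxiety-susceptible and 0 and 1 in insusceptible hippocampus. In the same order, 0, 1 and 2 of 4 thalamus genes were higher and 0 lower, and 1, 3 and 3 of 7 striatum genes were lower and 0 higher. Hippocampal markers were present, with 7 of 9 pyramidal neuron and 3 of 6 dentate granule genes on the array well above background on all 16 arrays.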

How the data were processed

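Hippocampal RNA of 16 samples was measured on single-colour Agilent arrays. RNA depleted of ribosomal RNA was labelled with Cy3 by random priming, per the labels. Agilent Feature Extraction 11.0.1.1 gave the deposited intensity of each spot after background subtraction and spatial detrending within the array, per the file headers. The authors' value table holds log2 values whose columns have nearly the same median, with software and centring not given in the sources used here. It served only as an alternative. The other columns used are spot flags, deposited as 0 or 1 per the file headers.

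Spots marked as outliers were left out, spots of a probe were averaged, and each array's 75th percentile was subtracted on the log2 scale. Arrays of 1 group on 1 slide were averaged into 6 samples, and 4 group means were fitted with limma 3.58.1 in R 4.3.3 (2 residual degrees of freedom). Of 24684 probes, 17885 were well above background on at least 4 arrays, and 17713 of these had a value in all 6 samples. A share between 62.2% and 74.5% of probes was well above background per array, and the number of arrays limits the precision. The self-test used simulated data. Symbols came from RefSeq names on GRCr8, for 14274 of 15323 messenger RNA probes. Python 3.11.15, numpy 2.4.6, pandas 2.3.3 and matplotlib 3.10.9 were also used.

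The members and lists were chosen with earlier results of these data known. The text names the 7 members, other subunits with a probe and Gphn, and up to 2 rises and 2 falls past the threshold per other list and comparison with control. A few genes that this rule names are counted in their lists but not reported here by name. It also names the 3 most similar genes per member and the brightest markers. Alternatives were other scalings, background correction, filters, blocks and samples left out.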

Additional observations from a re-analysis of the deposited data

Results flagged for a closer look

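In each of 28 sets of 4 arrays (7 members in 4 groups) the array farthest from its neighbours was examined, and in 3 sets its gap was past Dixon's critical value, where chance gives about 1 in 20. The level of Gabra3 on control replicate 1 was -5.26, while the other control arrays lay between -6.83 and -6.63, and this probe was dim. Gabra4 on control replicate 1 was 0.37, while the other control arrays lay between 0.64 and 0.65. Gabra4 on insusceptible replicate 1 was -0.23, while the other insusceptible arrays lay between -0.26 and -0.26, so the gap there was small in itself. Without control replicate 1, Gabra4 was still called in anxiety-susceptible and insusceptible hippocampus.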

How the results depend on the processing

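Gabra4 and Gabrg1 were called lower in anxiety-susceptible hippocampus than in control under all 29 alternatives tried. Of 1240 member values under an alternative, 1083 counted as unchanged, some because their setting could not alter them. Another 98 newly passed the threshold and 28 no longer did. Within a slide 8 moved, such as Gabra3 to 0.12 on slide 2, and 23 others changed sign. Of these 23, 18 were for the dim probe of Gabra3 and 20 had a size under 0.1 as reported. Under normexp, Gabra3 turned to 0.60 and 0.62 in anxiety-susceptible and insusceptible hippocampus against control, to -0.98 in depression-susceptible against insusceptible and to -0.0229 in anxiety-susceptible against insusceptible hippocampus. In depression-susceptible against anxiety-susceptible hippocampus it turned to 0.17, 0.15 and 0.14 with quantile normalization, median scaling and the deposited table. Gabrd turned to -0.25 in insusceptible hippocampus against control and to 0.14 in depression-susceptible against anxiety-susceptible hippocampus with median scaling. Gabra5 turned to -0.0005 in anxiety-susceptible against insusceptible hippocampus with quantile normalization. The other 13 came with 1 array or sample left out, between stressed groups. Gabra3 then ranged from -0.23 to 0.28 in depression-susceptible against insusceptible, from -0.18 to 0.23 in anxiety-susceptible against insusceptible and from -0.29 to 0.21 in depression-susceptible against anxiety-susceptible hippocampus. In the last of these Gabrd ranged from -0.0997 to 0.0025, and Gabra5 ranged from -0.0015 to 0.0286 in anxiety-susceptible against insusceptible hippocampus. Causes were not tested. In depression-susceptible hippocampus against control, 0 members were called, but 6 with 16 arrays as separate samples, 6 with the replicate block, 6 with the slide as a random block and 2 with the slide as a block. In anxiety-susceptible hippocampus against control 4 were called, and 2 without the filter, 6, 6 and 6 with 16 arrays, the replicate block and the random block, and 5 with median scaling, 0 higher and 5 lower. In insusceptible hippocampus against control 3 were called, and 6, 6 and 5 in those 3 settings, 4 with normexp and 4 with median scaling, 0 higher and 4 lower. Between depression-susceptible and insusceptible hippocampus 0 were called, and 6, 5 and 4 under those 3 settings, 4 under normexp and 1 each under quantile normalization, the deposited table and no filter. Between anxiety-susceptible and insusceptible hippocampus 0 were called, and 5, 5 and 1 under those 3 settings. Between depression-susceptible and anxiety-susceptible hippocampus 0 were called, and 5, 4 and 4 under those settings, 5 under normexp and 3 each under quantile normalization, the deposited table and a filter on all 16 arrays. Leaving out 1 array or averaged sample gave 2 to 4 members in anxiety-susceptible and 0 to 3 in insusceptible hippocampus against control, lowest without the control sample of slide 1, and 0 to 0 in the other 4 comparisons. Same-numbered replicates did not deviate together, with correlations from -0.663 to 0.177, of which 3 of 24 were over 0.1, so the replicate number was not taken as a pairing. Same-numbered control and depression-susceptible arrays lay on different slides, so their correlations carry the slide difference too and cannot show a pairing. The deviations of slide 2 from slide 1 correlated at 0.721 between depression-susceptible and control arrays over 17885 probes.

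Against control, 1790 probes were called in depression-susceptible hippocampus, 4989 in anxiety-susceptible and 5204 in insusceptible hippocampus. With 16 arrays they were 8800, 12765 and 13005, with the replicate block 8173, 12388 and 12606, with the random block 10230, 9957 and 10177, and without the filter 1023, 2408 and 8142. The slide as a block gave 6539 in depression-susceptible, normexp 9478 and 9666 in anxiety-susceptible and insusceptible, and median scaling 7586 in anxiety-susceptible hippocampus. Between depression-susceptible and insusceptible hippocampus 12 were called, and 11021, 10431 and 7128 with 16 arrays, replicate and random block, 924 with quantile normalization, 7162 with normexp, 398 in the deposited table and 4174 without the filter. Between anxiety-susceptible and insusceptible hippocampus 16 were called, and 6433, 5578 and 1905 in the first 3 settings, then 76, 10, 48 and 0. Between depression-susceptible and anxiety-susceptible hippocampus 53 were called, and 11028, 10461 and 7396, then 1860, 7094, 1480 and 8, and a filter on all 16 arrays gave 33 and 841 in these last 2 comparisons. Normexp used median spot and background signals, with the local background limited to the 99th percentile of each array, which was chosen after seeing the data. Other probes were not run, since each member has 1. Signal over background limits Gabra3, Gabra6 and Gabrr3.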
